A study of Arabidopsis thaliana with 4 samples.

Results

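The GILT family comprises thiol reductases related to the mammalian gamma-interferon-inducible lysosomal thiol reductase. Its 6 Arabidopsis thaliana genes, named by their AGI codes, were followed through fruit development, and 5 of them had a row among the 30897 gene identifiers of the deposited tables. These were AT4G12960 (symbol GILT), AT4G12870, AT4G12890 and AT4G12900 on chromosome 4 and AT1G07080 on chromosome 1. AT5G01580 (OSH1, OAS HIGH ACCUMULATION 1) on chromosome 5 had no row and its level was not analysed here. The 6 genes are the same 6 that carry the GILT domain in the RefSeq notes on TAIR10.1. The members were chosen by family with their FPKM over the 4 stages in view, so those levels and the differences made from them are given as a description.

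Whole siliques, the pods that enclose the seeds, were collected from untransformed Col-0 plants grown in long days, with no treatment named. The age classes were 0 to 5 days after anthesis (stage 1), 6 to 10 days (stage 2), 11 to 15 days (stage 3) and 16 to 20 days (stage 4), and each had 1 library. These limits are those of the stage label; the growth protocol differs from it for stage 1 and stage 4. There is therefore no replicate error, and no p-value is given for any difference. Values are FPKM as computed by the authors, that is, fragment numbers scaled to transcript length and library size.

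In mammals, GILT enzymes reduce disulfide bonds of proteins in the acidic lysosome. They work through a pair of cysteines separated by 2 residues, the CXXC site shared with thioredoxins and protein disulfide isomerases. In plants much less is known of the family. RefSeq annotates OSH1 as a thiol reductase in the metabolism of O-acetylserine (OAS), the precursor of cysteine, and places the product of AT1G07080 in the vacuole.

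The catalytic site shows what the members have in common. In the coding sequence of each of the 6 genes a search for 2 cysteine codons (TGT or TGC) separated by 2 codons found 1 such pair. It lay in the first coding exon, with the first cysteine between codon 37 and codon 49. The stretches below run from 5 codons before that pair to 5 codons after it, read from TAIR10.1 with the RefSeq gene models, and capitals mark the cysteine codons and the 2 codons between them.
AT4G12960 (chr4:7583409-7583450, plus strand): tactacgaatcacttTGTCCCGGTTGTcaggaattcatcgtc
AT4G12870 (chr4:7542396-7542437, plus strand): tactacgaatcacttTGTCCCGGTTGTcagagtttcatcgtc
AT4G12890 (chr4:7546540-7546581, plus strand): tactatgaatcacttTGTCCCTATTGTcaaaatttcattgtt
AT4G12900 (chr4:7548943-7548984, plus strand): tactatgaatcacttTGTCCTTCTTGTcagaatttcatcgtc
AT1G07080 (chr1:2170198-2170239, plus strand): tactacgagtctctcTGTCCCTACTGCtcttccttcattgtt
AT5G01580 (chr5:223718-223759, minus strand): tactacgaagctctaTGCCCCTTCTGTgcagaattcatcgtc
The codon after the first cysteine was CCC or CCT, both proline codons, in every member. The next codon varied. It was GGT in AT4G12960 and AT4G12870, the most abundant chromosome 4 transcripts, TAT or TAC in AT4G12890 and AT1G07080, TCT in AT4G12900 and TTC in OSH1.

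The gene models were alike in layout and unlike in sequence. Each member had 5 coding exons, and the coding sequences ran from 690 bases in AT4G12870 to 798 bases in AT1G07080. Pairs of chromosome 4 genes were 73.8% to 79.9% identical over their aligned coding bases. A chromosome 4 gene and AT1G07080 or OSH1 were 51.0% to 56.1% identical, and AT1G07080 and OSH1 were 54.1% identical. The longest run shared by the transcripts of any pair was 41 bases, between AT4G12960 and AT4G12870. No window of 50 or 100 bases in any member's transcript occurred more than once in the genome, and the labels give reads of 100 cycles from both ends. Only exact matches were sought. Windows across an exon join are absent from the gene's own genomic sequence, so the search says little of them. Each of the 5 measured members also had a locus of its own in the deposited tables.

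The chromosome 4 genes followed 1 course at very different levels, with a maximum at days 6 to 10. AT4G12960, which gives the family its Arabidopsis symbol, stood at 1823, 10347, 565 and 119 FPKM in stages 1 to 4. In stage 2 it was the second most abundant of 29971 loci, against the rank of 50 in stage 1, 172 in stage 3 and 1171 in stage 4. It was the most abundant of the 579 loci, 3.19% of the 18149 with values above 0 in all libraries and FPKM 1 in at least 1, that peaked in stage 2 by being at least 2-fold above each other library.

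AT4G12870, the next copy by level, stood at 228, 1796, 121 and 36.7 FPKM in stages 1 to 4. It ranked at 19 among all loci in stage 2. AT4G12890 stood at 34.2, 281, 14.8 and 6.53 FPKM. AT4G12900, the copy of lowest level, stood at 5.29, 26.9, 1.19 and 1.12 FPKM. All 4 had their highest value in stage 2 and the next highest in stage 1, and their order by FPKM was the same in every library. The stage 2 value exceeded the stage 1 value 5.68-fold in AT4G12960, 7.87-fold in AT4G12870, 8.24-fold in AT4G12890 and 5.08-fold in AT4G12900.

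AT1G07080, the dispersed member on chromosome 1, did not share this course. Its FPKM was 111, 177, 205 and 135 in stages 1 to 4, so that its highest library was 1.85-fold above its lowest. The highest library of a chromosome 4 gene was 24.0-fold (AT4G12900) to 86.9-fold (AT4G12960) above its lowest. The highest stage of AT1G07080 was stage 3 as deposited. It moved to stage 4 with equal FPKM sums and to stage 2 when the longer loci (300 bases and up) were given the same total, so no peak is read from it.

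**Figure D1:**
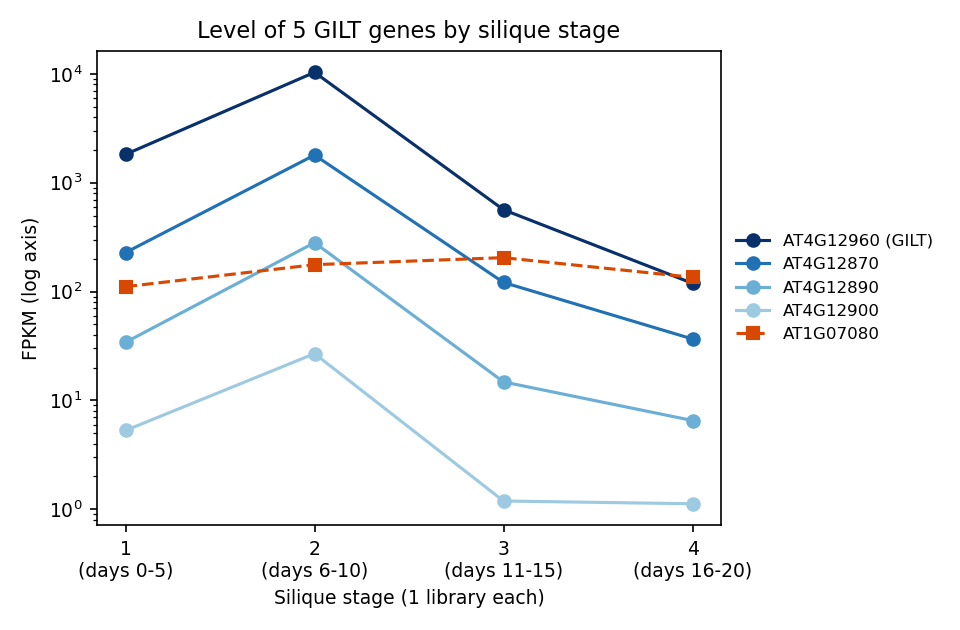
FPKM of the 5 measured GILT genes (vertical log axis) in the 4 silique stages (horizontal axis), 1 library per point. The 4 chromosome 4 genes (circles) are highest in stage 2, from 26.9 FPKM for AT4G12900 to 10347 FPKM for AT4G12960, while AT1G07080 (squares) lies between 111 and 205 FPKM throughout.

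Between stage 1 and stage 2 the 4 chromosome 4 members rose and AT1G07080 did not pass the limit. The call required a gap of 1 or more on the log2(FPKM + 1) scale and FPKM 1 in the library with more. The differences of log2(FPKM + 1) were 2.50 for AT4G12960, 2.97 for AT4G12870, 3.01 for AT4G12890 and 2.15 for AT4G12900. That of AT1G07080 was 0.67. Thus 4 of 5 members were higher, beside 11.8% of the 17988 loci compared, and 0 lower, beside 15.3%. The median difference was 2.50 over the members and 0.00066 over all loci compared. With other scalings AT1G07080 passed the limit too, at 1.90 with equal FPKM sums, where 53.4% of all loci were higher, and 1.13 with the longer loci set to the same total, where 22.5% were.

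Between stage 2 and stage 3 the same 4 genes fell, as deposited by more than they had risen. The FPKM ratio of stage 2 to stage 3 was 18.3 for AT4G12960, 14.8 for AT4G12870, 19.0 for AT4G12890 and 22.6 for AT4G12900. On the log2(FPKM + 1) scale the differences were -4.19, -3.88, -4.16 and -3.67, and each ranked between 76 and 123 by size of decrease among 17533 loci. The difference of AT1G07080 was 0.21, short of the limit. The count was 4 of 5 members lower, beside 11.9% of all loci, and 0 higher, beside 13.1%. The median was -3.88 over the members and -0.01 over all loci.

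Between stage 3 and stage 4 the more abundant copies declined again. AT4G12960 differed by -2.24, AT4G12870 by -1.70 and AT4G12890 by -1.07 on the log2(FPKM + 1) scale. AT4G12900, already near 1 FPKM, differed by -0.04, and AT1G07080 by -0.60. So 3 of 5 members were lower, beside 6.42% of 16961 loci, and 0 higher, beside 5.52%. With equal FPKM sums AT4G12960 alone was past the limit, beside 2.58% of loci lower, and with a pseudocount of 5 AT4G12890 was short of it, at -0.78.

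From the first to the last stage all 4 chromosome 4 members fell as deposited and AT1G07080 did not pass the limit. The stage 1 value was 15.3 times the stage 4 value for AT4G12960, 6.22 times for AT4G12870, 5.23 times for AT4G12890 and 4.72 times for AT4G12900. The differences of log2(FPKM + 1) were -3.93, -2.61, -2.22 and -1.57, and 0.28 for AT1G07080. The count was 4 of 5 members lower, beside 22.6% of 17802 loci, and 0 higher, beside 20.7%. This comparison depended on the settings. With a pseudocount of 5 AT4G12900 was short of the limit, at -0.75. With equal FPKM sums, which hold a short locus taking 78.3% of the stage 1 sum and 6.65% of the stage 4 sum, AT4G12960 alone was lower, beside 5.04% of all loci. AT1G07080 was higher under that scaling, as were 76.3% of all loci, so nothing is read from it.

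The make-up of the family's transcripts turned over. The FPKM of the 5 genes summed to 2201, 12628, 907 and 299 over stages 1 to 4. The chromosome 4 genes held 95.0%, 98.6%, 77.4% and 54.7% of these sums. AT4G12960 alone held 82.8% in stage 1 and 81.9% in stage 2, then 62.3% and 39.9%. AT1G07080 held 5.04% and 1.40% in the first stages and 22.6% in stage 3. In stage 4 it held 45.3% and was the most abundant member. AT4G12870 kept between 10.4% and 14.2%, and AT4G12890 and AT4G12900 together stayed under AT4G12870 in every library. These shares are ratios within a library and do not change when a library is rescaled.

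**Figure D2:**
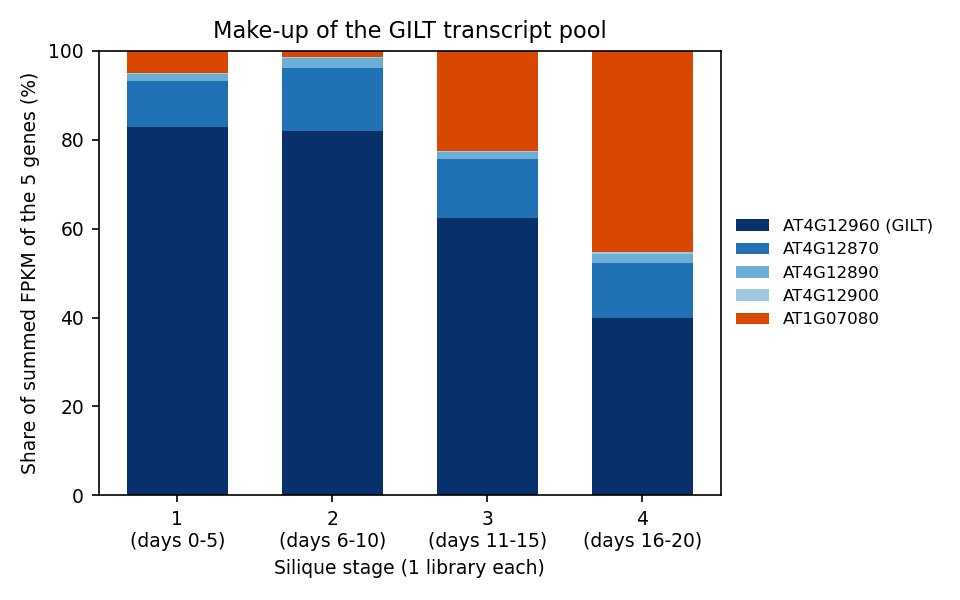
Share of the summed FPKM of the 5 GILT genes (vertical axis, percent) held by each gene in the 4 silique stages (horizontal axis), 1 library per bar. AT4G12960 holds 82.8% in stage 1 and 39.9% in stage 4, and AT1G07080 5.04% and 45.3%.

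AT4G12960 stood less far above each of the other chromosome 4 copies in stage 4 than in stage 1. AT4G12960 exceeded AT4G12870 in FPKM by 7.99-, 5.76-, 4.66- and 3.25-fold in stages 1 to 4. Its ratio to AT4G12890 was 53.3, 36.8, 38.2 and 18.2. The ratio to AT4G12900 was 344, 385, 475 and 106, and the last 2 of these rest on the least precise values. With the depth estimated from low values and the transcript length less 180 bases, AT4G12900 had about 43.3 fragments in stage 3. In stage 4 it had about 36.1. The counting error was then 15.2% and 16.6%, and it is as approximate as the depth. For all other values of the members that error was 7.26% or less. It covers counting alone, and the spread between fruits was not measured.

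Likeness in sequence and likeness in stage profile went together across pairs only in that the chromosome 4 genes were alike in both. After subtracting each gene's own mean of log2(FPKM + 1), the Euclidean distance over the 4 stages was smallest for AT4G12870 and AT4G12890, at 0.45, which were 79.3% identical. It reached 2.13 for AT4G12960 and AT4G12900, which were 73.8% identical. Among the chromosome 4 genes the distance did not follow identity pair by pair. AT4G12890 and AT4G12900, the most identical at 79.9%, lay at 1.10 and AT4G12870 and AT4G12900, at 79.6%, lay at 1.45, while AT4G12960 and AT4G12870, at 74.5%, lay at 0.96. Distances to AT4G12900 depend on the 1 added to FPKM, as it stood at 1.19 and 1.12 FPKM in stages 3 and 4. Small gaps between these distances are therefore not read. The 4 distances to AT1G07080 ran from 3.08 to 4.65. Pairs share genes and libraries, so no test was made.

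**Figure D3:**
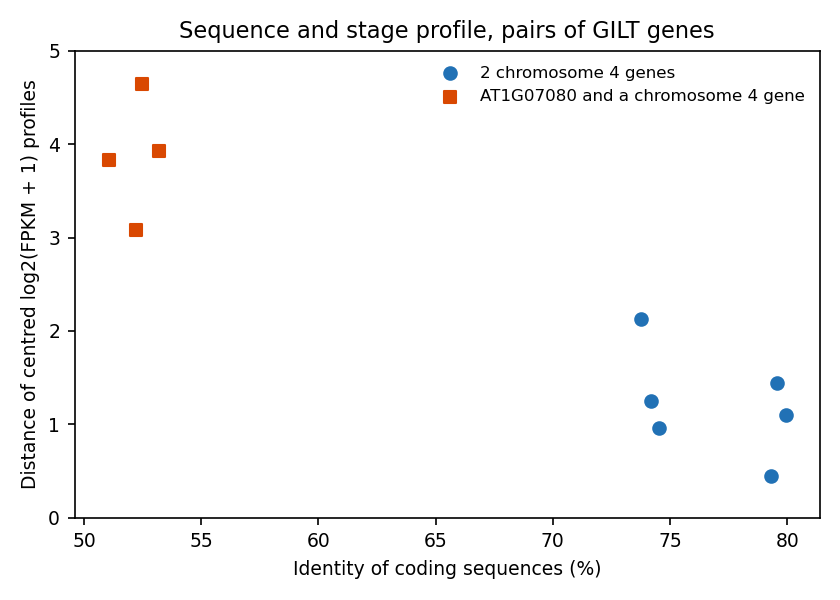
Euclidean distance between centred log2(FPKM + 1) profiles over the 4 stages (vertical axis) against identity of the aligned coding sequences in percent (horizontal axis) for the 10 pairs of measured GILT genes. Pairs of chromosome 4 genes (circles) lie at 73.8% to 79.9% identity and distances of 0.45 to 2.13, pairs with AT1G07080 (squares) at distances of 3.08 to 4.65.

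The stage 2 maximum was not a property of the whole stretch of chromosome 4. The members lie on the plus strand, AT4G12870 at 7542233 to 7543474, AT4G12890 at 7546377 to 7547641, AT4G12900 at 7548820 to 7549974 and AT4G12960 at 7583272 to 7584630, in the coordinates of the deposited files (TAIR10). The rows from AT4G12840 to AT4G13000 held 19 genes, 15 of them no members. Of these 15, 12 reached 1 FPKM in some library, and 8 of the 12 were highest in stage 1, 3 in stage 3 and 1 in stage 2. No margin was required, and some were nearly level, such as AT4G12850 at 6.17, 4.55, 5.15 and 5.79 FPKM. The 1 highest in stage 2 also peaked there by 2-fold, beside 3.19% of the 18149 loci defined above. The shares of all loci highest in stage 1 or stage 3 were not computed. ENODL19 (AT4G12880), an early nodulin-like protein gene on the minus strand between AT4G12870 and AT4G12890, stood at 364, 65.8, 12.8 and 14.1 FPKM. STOMAGEN (AT4G12970), which encodes a secreted peptide that promotes stomata and is the next gene after AT4G12960, stood at 36.9, 4.95, 4.37 and 5.07 FPKM.

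The neighbour highest in stage 2 was AT4G12910 (scpl20), a serine carboxypeptidase-like gene annotated to the vacuole, at 48.7, 805, 204 and 27.5 FPKM. It lies on the opposite strand beside AT4G12900. The loci of the deposited files do not overlap, but the RefSeq models do, with AT4G12900 ending at 7550333 and AT4G12910 starting at 7550238. Fragments from that overlap cannot be assigned to 1 gene, as the kit keeps no strand information. The overlap lies outside both deposited loci, of which AT4G12900 ends at 7549974 and AT4G12910 starts at 7550433. AT4G12910 was lower in stage 1 than in stage 3, whereas the 4 members were lower in stage 3 than in stage 1. Other genes of the stretch were near silent, such as the aspartyl protease gene UND (AT4G12920), listed at 0 in every library.

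**Figure D4:**
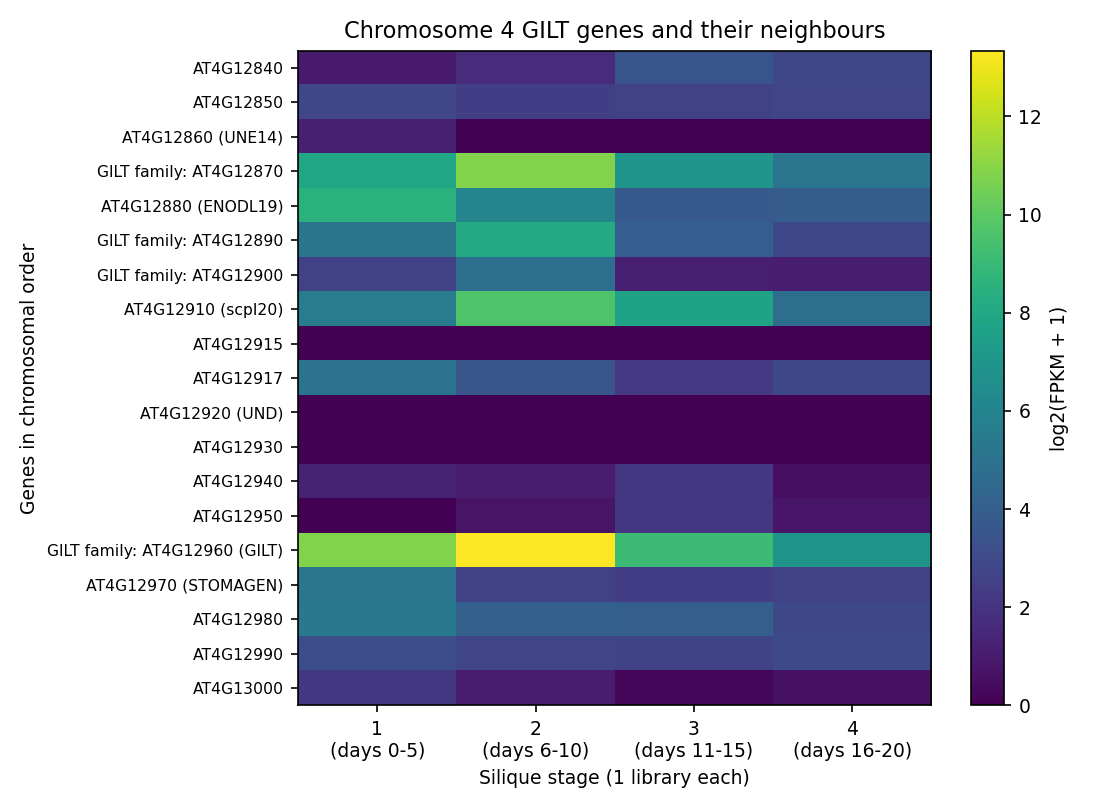
Level as log2(FPKM + 1) (colour) of the 19 genes from AT4G12840 to AT4G13000 in chromosomal order (vertical axis) in the 4 silique stages (horizontal axis), 1 library per column. The 4 GILT genes and AT4G12910 are brightest in stage 2, while ENODL19 and STOMAGEN are highest in stage 1.

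The 250 bases before each annotated start were read from TAIR10.1 to see what the 4 genes that moved together have in common upstream. Capitals mark matches, on either strand, to CACGTG (G-box), ACACNNG, which G-box-related bZIP factors bind, and GAGAC, the core of a sulfur-responsive element. No member held CATGCA (RY element), TGAGTCA (GCN4-like) or AACAAAC, which 8.43%, 2.83% and 11.2% of 27443 promoters of that length held.
AT4G12960 (chr4:7582989-7583238, plus strand): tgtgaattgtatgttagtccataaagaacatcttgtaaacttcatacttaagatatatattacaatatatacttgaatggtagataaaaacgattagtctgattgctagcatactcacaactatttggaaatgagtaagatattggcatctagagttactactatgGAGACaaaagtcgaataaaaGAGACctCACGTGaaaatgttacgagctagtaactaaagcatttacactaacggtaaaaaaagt
AT4G12870 (chr4:7541983-7542232, plus strand): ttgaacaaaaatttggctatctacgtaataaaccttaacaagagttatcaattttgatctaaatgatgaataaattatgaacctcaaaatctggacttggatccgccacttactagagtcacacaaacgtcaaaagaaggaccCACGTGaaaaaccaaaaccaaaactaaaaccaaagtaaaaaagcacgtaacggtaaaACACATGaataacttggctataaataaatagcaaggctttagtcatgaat
AT4G12890 (chr4:7546042-7546291, plus strand): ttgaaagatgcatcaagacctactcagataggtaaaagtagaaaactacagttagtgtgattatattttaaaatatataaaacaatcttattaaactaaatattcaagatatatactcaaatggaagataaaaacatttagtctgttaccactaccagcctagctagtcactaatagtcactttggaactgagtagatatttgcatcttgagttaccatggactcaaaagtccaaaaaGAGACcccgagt
AT4G12900 (chr4:7548515-7548764, plus strand): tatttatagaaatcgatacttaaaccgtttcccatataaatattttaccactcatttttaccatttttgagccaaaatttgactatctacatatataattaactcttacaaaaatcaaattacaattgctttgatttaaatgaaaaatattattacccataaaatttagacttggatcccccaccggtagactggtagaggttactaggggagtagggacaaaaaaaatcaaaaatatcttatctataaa
AT1G07080 (chr1:2169727-2169976, plus strand): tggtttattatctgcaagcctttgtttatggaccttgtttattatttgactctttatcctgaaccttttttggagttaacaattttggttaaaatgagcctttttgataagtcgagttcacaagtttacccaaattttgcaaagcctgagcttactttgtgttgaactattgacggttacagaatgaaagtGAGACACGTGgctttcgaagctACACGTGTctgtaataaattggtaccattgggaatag
CACGTG was present in AT4G12960, AT4G12870 and AT1G07080 and in 6.49% of all promoters. GAGAC was present in AT4G12960, AT4G12890, AT1G07080 and OSH1 and in 25.8% of all promoters. ACACNNG, which in AT1G07080 overlaps the G-boxes and in OSH1 overlaps GAGAC, was present in AT4G12870, AT1G07080 and OSH1 and in 23.1% of all promoters. The RefSeq transcript of OSH1 is its 702 coding bases alone. The 250 bases before its start, not printed here, may thus include untranslated bases of the transcript. None of the searched letters occurred in all 4 chromosome 4 promoters, and AT4G12900 held none. These windows end at the RefSeq starts. The deposited loci of AT4G12960, AT4G12890 and AT4G12900 start further on, at 7583272, 7546377 and 7548820. Bases between these starts were not searched, so absence holds for the 250-base windows only. Pairs of chromosome 4 promoters were 47.7% to 53.3% identical after alignment, beside 45.5% to 49.3% between them and the dispersed members. The longest run shared by chromosome 4 promoters was 11 bases. Windows were aligned over their full length, so stretches alike at unlike distances from the start can be missed. GAGAC, for example, began 84 and 64 bases before the start in AT4G12960 and 12 in AT4G12890. Pairs of unrelated promoters were not aligned, so likeness or its lack upstream is not read from these figures. A match is a description of the letters and not of a bound factor.

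Genes whose levels lay nearest to those of the members were taken by Euclidean distance over the 4 values of log2(FPKM + 1), among 23152 other single-gene protein-coding loci. The values were not centred here, so the distance weighs height as well as course. For AT4G12890 they were DFR, dihydroflavonol reductase (34.8, 237, 20.6 and 9.11 FPKM, distance 0.67), LDOX, leucoanthocyanidin dioxygenase (44.7, 275, 20.3 and 8.57 FPKM, distance 0.67) and the defensin-like gene AT5G44973 (distance 1.05). DFR and LDOX act in the pathway that makes seed coat tannins. For AT4G12870 they were AT1G56100 (406, 2721, 154 and 39.4 FPKM, distance 1.09) and AT4G15750 (distance 2.12), both of the invertase and pectin methylesterase inhibitor superfamily, and the defensin-like gene AT1G77525 (distance 1.62).

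For AT4G12900 the nearest were the dirigent-like gene AT4G38700 (7.91, 28.7, 1.08 and 1.62 FPKM, distance 0.60), the glutathione transferase gene GSTF5 (distance 0.67) and AT1G11593, another inhibitor of the superfamily above (distance 0.91). For AT4G12960 few genes reached its level. LTP6, a lipid transfer protein gene (4872, 6802, 291 and 63.6 FPKM), lay at 2.02. GRP5, a glycine-rich protein gene (3588, 3176, 273 and 198 FPKM), lay at 2.34. LHCB5, a light-harvesting antenna gene (2536, 1986, 905 and 475 FPKM), lay at 3.21. Unlike AT4G12960, GRP5 and LHCB5 were highest in stage 1. The genes nearest to AT1G07080 were of another kind, CAC2, the biotin carboxylase subunit of plastid acetyl-CoA carboxylase, at 0.35, GH9A1, a cellulase of cellulose synthesis, at 0.44 and E1 ALPHA, a pyruvate dehydrogenase subunit, at 0.45. The distance ranks 4 points per gene and says nothing of shared function.

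Markers of the fruit's parts moved over the same stages. Whole siliques were sequenced, so fewer cells of a type and less RNA per cell cannot be told apart. The 4 seed coat markers summed to 117, 499, 156 and 90.4 FPKM in stages 1 to 4. Among them BAN, the anthocyanidin reductase of the inner seed coat, stood at 77.3, 360, 42.4 and 15.3 FPKM and PRX36, a peroxidase of mucilage cells, at 0.154, 76.6, 30.5 and 11.9 FPKM. TT12, a transporter of tannin precursors, was level over the first 2 stages (15.4 and 15.5 FPKM) and MUM2, a galactosidase of mucilage, was highest in stage 3 (83.3 FPKM).

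The 3 embryo markers LEC1, FUS3 and ABI3 summed to 0.666, 109, 217 and 203 FPKM. Among them LEC1 was highest in stage 2, at 0.489, 78.6, 31.6 and 8.00 FPKM. FUS3 (0.152, 22.1, 112 and 114 FPKM) and ABI3 (0.0255, 7.82, 74.1 and 81.1 FPKM) were highest in stage 4. The 2 endosperm markers with a row, of 4 listed, summed to 0.273, 51.3, 49.6 and 11.2 FPKM. The 3 fruit wall markers with a row, of 4 listed, stayed between 95.8 and 127 FPKM. The 3 pollen markers summed to 392 FPKM in stage 1 and to between 4.99 and 12.7 FPKM later, and the 2 nectary markers to 20.3 FPKM and then to between 0.0938 and 0.714 FPKM. The only marker listed at 0 was CRC, of nectary and carpel, in stage 4. The part of any tissue in the course of the GILT genes was not tested.

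Other thiol and sulfur genes were set beside the family in 5 lists of 61 entries, 55 of which had a row. Their counts are to be read against all loci, of which 11.8% were higher and 15.3% lower from stage 1 to 2, and 13.1% higher and 11.9% lower from stage 2 to 3. Protein disulfide isomerases and ERO1 oxidases form and rearrange disulfides in the endoplasmic reticulum. From stage 1 to 2, 0 of 14 were higher and 0 lower (median -0.04), and from stage 2 to 3, 0 were higher and 1 lower (median -0.25). The lower gene was PDIL1-2, highest in stage 2, at 59.4, 86.6, 42.1 and 47.7 FPKM. PDIL1-1, the most abundant of them, stood at 91.6, 80.6, 138 and 158 FPKM and PDIL5-4 at 38.6, 21.3, 18.7 and 17.4 FPKM. With equal FPKM sums 10 of the 14 were higher in stage 2, beside 53.4% of all loci.

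Of 10 genes of the thioredoxin h system, the cytosolic disulfide reductants, 0 were higher and 0 lower in stage 2 (median -0.49). In stage 3, 2 were higher and 2 lower (median 0.29), beside 13.1% and 11.9% of all loci, TRX1 going from 18.8 to 3.35 FPKM. TRX3, the most abundant, stood at 636, 517, 915 and 1156 FPKM, and TH8 at 0.432, 0.137, 0.563 and 5.12 FPKM. In stage 2 AT4G12960 thus stood at 20.0 times the FPKM of TRX3. Of 11 genes listed under cysteine synthesis, 2 were higher and 1 lower in stage 2 (median -0.33), beside 11.8% and 15.3% of all loci. In stage 3, 0 were higher and 1 lower (median -0.10), beside 13.1% and 11.9%. The list was drawn by enzyme family, and it was not checked that each member makes cysteine. CYSD2, a cysteine synthase isoform, rose from 7.15 to 23.9 FPKM and then fell to 6.98 FPKM. OASA1, the main cytosolic O-acetylserine thiol-lyase, stood at 244, 194, 308 and 292 FPKM, OASC at 31.6, 22.2, 13.5 and 11.6 FPKM and SERAT3;1 at 7.37, 12.5, 17.4 and 22.2 FPKM.

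Of 9 genes induced when sulfur is short, with values above 0, 1 was higher and 1 lower in stage 2 (median 0.15), beside 11.8% and 15.3% of all loci. In stage 3, 4 were higher and 0 lower (median 0.94), beside 13.1% and 11.9%. LSU1 stood at 3.73, 5.52, 30.8 and 43.3 FPKM and MGL, methionine gamma-lyase, at 42.8, 119, 158 and 154 FPKM, while BGLU28 stood at 3.75, 1.64, 0.445 and 0.451 FPKM. SULTR1;1 was listed at 0 in stages 2 to 4.

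Of 10 vacuolar cysteine proteases and processing enzymes, 2 were higher and 3 lower in stage 2 (median -0.12), beside 11.8% and 15.3% of all loci. In stage 3, 6 were higher and 1 lower (median 1.24), beside 13.1% and 11.9%. The locus of DELTA-VPE, a processing enzyme of the seed coat, shared with AT3G20220, stood at 40.1, 1863, 338 and 120 FPKM and was the member of this list that was highest in stage 2 and fell in stage 3. Because of the shared locus its value is joint. BETA-VPE, which processes seed storage proteins, went from 1.72 and 10.4 FPKM to 239 and 398 FPKM. SAG12, a senescence-associated protease, stood at 719, 4.48, 99.4 and 192 FPKM, so that its lowest library was the one in which the chromosome 4 GILT genes were highest.

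**Figure D5:**
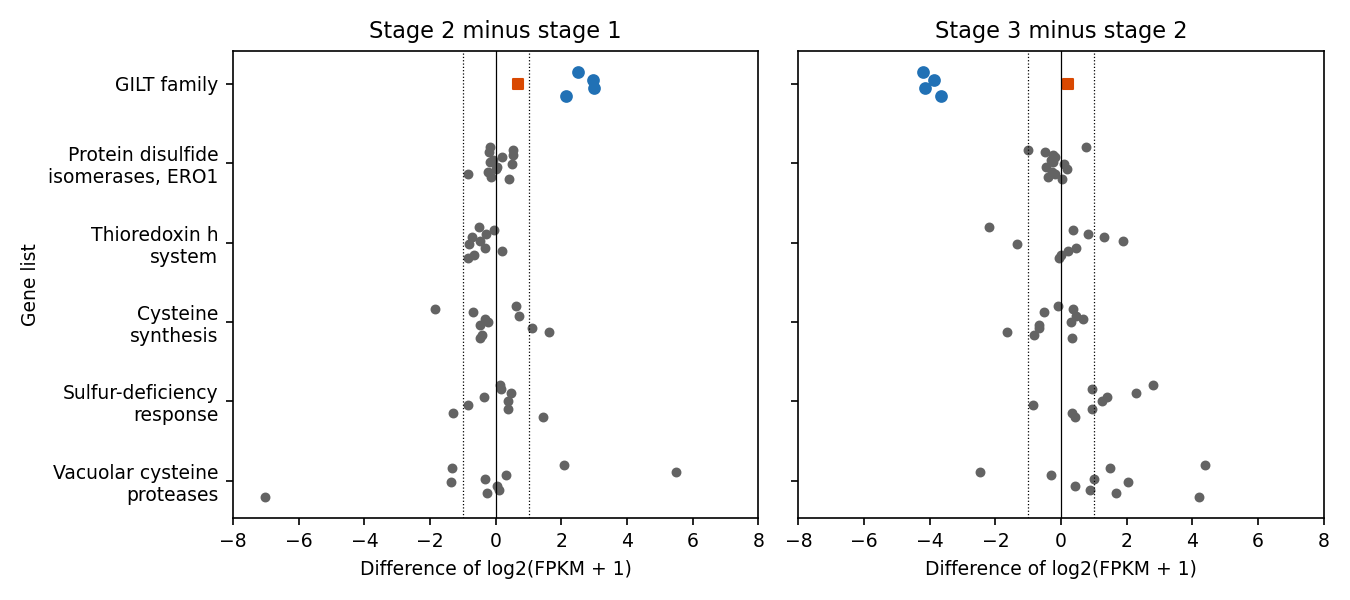
Difference of log2(FPKM + 1) for each gene of the GILT family and of 5 comparison lists (horizontal axis; rows are the lists), stage 2 minus stage 1 on the left and stage 3 minus stage 2 on the right. Dotted lines mark the limit of 1 in either direction; the 4 chromosome 4 GILT genes (blue circles) lie at 2.15 to 3.01 and then at -4.19 to -3.67, AT1G07080 (orange squares) at 0.67 and 0.21.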

How the data were processed

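RNA of whole siliques was profiled in 4 libraries, 1 per age class, grouped by the developmental stage label. Per the labels' protocols, a second-version TruSeq kit was used and fragments were read from both ends on a HiSeq. TAIR10 is the build, and Cufflinks, Cuffdiff and TopHat are the tools, per the submitters' processing notes, with no version in the sources used here. The authors deposited FPKM, 1 value per locus, for 29971 loci. Count models do not apply to FPKM, and a single library per stage leaves no test between stages.

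Differences are of log2(FPKM + 1), which understates the change of low genes. A locus was called at a difference of 1 with FPKM 1 in the higher library. Loci at 0 in either library were left out. Each comparison was made over all loci. The members, lists and settings were chosen with earlier results of these data known.

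The text names the 6 members, the 3 nearest loci of each member that reached 10 FPKM, genes from AT4G12840 to AT4G13000 and, of each list, the member with the largest rise, the largest fall (stage 1 to 4) and the highest FPKM. ENODL19, STOMAGEN, UND and the scpl20 gene among the neighbours, and TRX1, CYSD2, SULTR1;1 and the markers given one by one, were picked for description after their values were seen. The call rule was tested on simulated data.

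Depth was estimated from the low values. At 2599 single-transcript loci longer than 1500 bases, FPKM times length less 180 bases fell within 0.2 of whole fragments for 70.4% to 78.9% of the 223 to 265 lowest values per library. The steps correspond to 65.9, 102.4, 67 and 59.2 M (mega) fragments in stages 1 to 4. They were chosen on these same values, so the share within 0.2 is no check of them, and the share reached by chance was not computed. The steps give relative depth only if no further scaling between libraries was applied.

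Sequences were read from RefSeq TAIR10.1 with its own gene models. The promoter and protein tables named in the plan were not used here, so promoters are the 250 bases before each gene start, and coding bases replace proteins. Identity is over all columns of a global alignment (match 1, mismatch -1, gap opening -3, gap extension -1). The tools were Biopython 1.88, pandas 2.3.3, matplotlib 3.10.9 and numpy 2.4.6 under Python 3.11.15. Alternatives were pseudocounts of 0.1 and 5, FPKM minimums of 0 and 5, a 4-fold limit, 3 rescalings and keeping loci at 0.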

Additional observations from a re-analysis of the deposited data

How the results depend on the processing

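The rise of the 4 chromosome 4 members in stage 2 and their fall in stage 3 passed the limit under all 9 alternatives. AT4G12960 lay between 2.46 and 3.75 and then between -4.61 and -4.03. Keeping loci at 0 and the FPKM minimums of 0 and 5 could not change these calls. The 4 genes were above 0 in every library and at 26.9 FPKM or more in stage 2. Their highest stage stayed stage 2 under the 3 rescalings. The later comparisons depended on scaling, pseudocount and limit. With a pseudocount of 5, 2 members were lower in stage 4 against 3 (AT4G12890 at -0.78 was not) and 3 against stage 1 (AT4G12900 at -0.75 was not). With equal FPKM sums, 1 member was lower in stage 4 against 3, and against stage 1 there was 1 lower and 1 higher. The summed GILT FPKM then differed by -0.77 and -0.64, AT4G12900 by 0.00068 (stage 4 against 1), and AT1G07080 was highest in stage 4; with the longer loci (300 bases and up) set to the same total it was highest in stage 2. With a 4-fold limit, 1 member was lower in stage 4 against 3, where the sum, at -1.60, was short of it, and 3 were lower against stage 1. The medians of all loci with equal sums were 1.06 (stage 2 against 1), 0.14 (3 against 2), 0.76 (4 against 3) and 1.94 (4 against 1), and with the longer loci set to the same total 0.42, -0.39, 0.05 and 0.12. The median-ratio scaling moved no count of members, but its factors lay between 0.985 and 1.03, so it hardly changed the values. Keeping loci at 0 could not move one, as no measured member was at 0.

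Of the 180 recomputed counts of the comparison lists, 39 changed, 32 of them by more than 1.5 times or to or from 0. The other 7 were of stage 3 against 2: 3 sulfur-deficiency genes higher with a pseudocount of 5, 6 with equal sums and 3 with the longer loci set to the same total, and 5, 7 and 5 protease genes higher under these and 5 under the median-ratio scaling. With equal sums, stage 2 against 1 had 10 disulfide isomerase, 2 thioredoxin, 4 cysteine synthesis, 6 sulfur-deficiency and 5 protease genes higher, with 0 cysteine synthesis, 0 sulfur-deficiency and 1 protease gene lower, and 0 disulfide isomerase genes were lower in stage 3 against 2. With the longer loci set to the same total, stage 2 had 4 cysteine synthesis genes higher, 0 sulfur-deficiency genes and 1 protease gene lower, and stage 3 had 1 thioredoxin gene higher, with 4 cysteine synthesis genes and 1 sulfur-deficiency gene lower. With a 4-fold limit, stage 2 had 0 cysteine synthesis and 0 sulfur-deficiency genes higher or lower and 1 protease gene lower. In stage 3 it left 0 disulfide isomerase, 1 thioredoxin and 0 cysteine synthesis genes lower, and 0 thioredoxin, 2 sulfur-deficiency and 3 protease genes higher. With a pseudocount of 0.1, 2 sulfur-deficiency genes were lower in stage 2 and 1 in stage 3. With a pseudocount of 5 there were 0 in stage 2, and 0 disulfide isomerase genes and 1 thioredoxin gene were lower in stage 3, as was 1 thioredoxin gene with an FPKM minimum of 5. The cause of these shifts was not tested, apart from the limits that by construction let fewer genes pass. No paired analysis was possible because each stage has 1 library, and for the same reason none could be left out.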
